A study of Mus musculus with 12 samples.

Results

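C-type lectin receptors are surface proteins through which myeloid cells recognise sugars, glycolipids and other ligands on microbes, crystals and damaged cells. The 10 genes described here are Clec1a, Clec1b, Clec7a, Clec12a, Clec4a2, Clec4a3, Clec4d, Clec4e, Clec4n and Clec5a, taken by their symbols from a table of 55401 gene IDs. The set was proposed with values for old against young libraries in view, Clec1a for its difference between them, so its members were selected on those values, and that contrast is given for the 10 genes as a description, without p-values.

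The libraries came from bone marrow derived macrophages, cells grown from mouse bone marrow with 20 ng/mL of macrophage colony-stimulating factor (M-CSF) and used on day 7. The old group held 6 libraries from mice aged 12 months and the young group 6 libraries from mice aged 8 weeks, all of the C57BL6 background, with no nanoparticle exposure or other treatment given in the labels. The labels call the libraries biological replicates. Whether each replicate came from its own animal is not said in them, and neither is sex. Assigned counts ran from 19345587 to 22356812 in old and from 22150081 to 25169045 in young libraries.

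The receptors divide by how they signal. Clec7a (Dectin-1, the receptor for fungal beta-glucan) carries a single-tyrosine activating motif in its own tail, and Clec1b (CLEC-2, the podoplanin receptor best known from platelets) has a similar one. Clec4n (Dectin-2), Clec4e (Mincle) and Clec4d (MCL) use the Fc receptor gamma chain, and Clec5a (MDL-1) uses DAP12, the product of Tyrobp. These chains lead to the kinase Syk and, through Card9, Bcl10 and Malt1, to NF-kappaB. Clec12a (MICL) and Clec4a2 (DCIR) carry inhibitory tyrosine motifs that recruit phosphatases such as the product of Ptpn6. Clec4a3 is a close relative of Clec4a2, and Clec1a (MelLec) binds the melanin of Aspergillus spores and is known from endothelium and myeloid cells.

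All 10 genes lie on chromosome 6 (GRCm38), at 3 places. Clec5a stands alone at positions 40574894 to 40585821. Clec4a3, Clec4a2, Clec4n, Clec4d and Clec4e lie in one cluster between 122952515 and 123289870. Clec12a, Clec1b, Clec1a and Clec7a lie in the other, between 129342691 and 129472779. Counts were made over all exons of a gene, without strand. No exon base of 9 members is shared with another gene, while Clec1b shares 184 exon bases with Clec9a.

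Macrophage genes were abundant in both groups, with the 10 marker genes listed summing to 33150 to 44660 CPM (counts scaled to library size) in old and 27560 to 46080 CPM in young libraries. Most of that sum was Lyz2, at a mean of 30260 CPM in old and 30704 CPM in young libraries. Libraries of each group differed in their cell cycle genes, of which 30 summed to 2598 CPM in old replicate 2, 1783 CPM in old replicate 3 and 4092 CPM in young replicate 6. The other old libraries held 752 to 1047 CPM of them and the other young libraries 998.2 to 1419 CPM. Old replicate 6 held 27.2 CPM of 10 T and NK cell markers, against at most 0.27 CPM in any other library, and also the highest sums of dendritic cell (94.1 CPM) and osteoclast (366 CPM) markers. Most of those sums there was 1 gene each, Itgax at 79.5 CPM and Atp6v0d2 at 335 CPM, both of which macrophages also express. The rest of these 2 lists was mixed. The dendritic cell gene Ccr7 reached 5.08 CPM among old and 0.519 CPM among young libraries. The osteoclast genes Ctsk and Acp5 reached 17.9 and 7.72 CPM among old and 16.8 and 5.70 CPM among young libraries. Flt3 and Xcr1 stayed below 1 CPM in every library, and the osteoclast gene Calcr had no count. In bulk RNA, a change in the share of cells that carry a transcript and a change in its amount per cell cannot be told apart.

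The receptors spanned a wide range of levels, with Clec4d far above the others and Clec1a and Clec1b lowest. Compared as CPM per kb of exon, Clec4d was the highest of the 10 at a mean of 344 ± 24.5 CPM per kb over the 12 libraries (SD), 4.13 times the next gene, Clec7a at 83.3 ± 27.2. Clec4a3 (82.0 ± 25.0) and Clec12a (70.2 ± 6.40) followed. Clec7a and Clec4a3 could not be ordered, since Clec7a was the higher of them in 5 of the 12 libraries. Clec4n (43.8 ± 14.4) and Clec4a2 (25.2 ± 4.24) came next. Clec5a (7.78 ± 2.61) and Clec4e (7.497 ± 1.08) could not be ordered either, with Clec5a the higher in 5 of 12 libraries. Clec1a averaged 0.423 ± 0.210 CPM per kb and Clec1b 0.209 ± 0.0474. Clec4e exceeded Clec1a 17.7-fold on this scale.

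**Figure D1:**
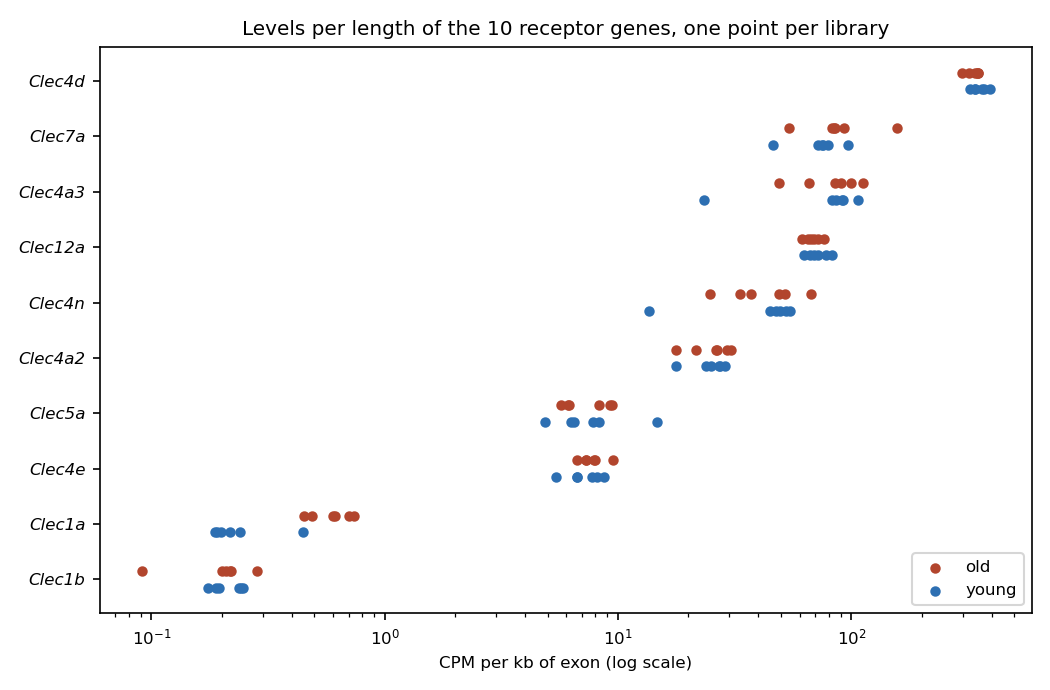
Levels of the 10 receptor genes as CPM per kb of exon, on a log axis, with one point per library, old above young for each gene. Clec4d stands above all others in every library, and Clec1a and Clec1b lie below every other gene.

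Clec1a was the member whose groups did not overlap. It held 2.34, 3.14 and 3.81 CPM as lowest, median and highest of the old libraries, against 0.970, 1.08 and 2.32 CPM in the young libraries. Every old library lay above every young one, though narrowly (2.34 CPM in old replicate 4 and 2.32 CPM in young replicate 3), while the other 5 young libraries held 0.970 to 1.24 CPM. The means were 3.10 ± 0.586 CPM in old and 1.28 ± 0.520 CPM in young libraries (SD, n = 6 each), a log2 fold change of 1.27 with a standard error of 0.23. These levels rest on few reads, 50 to 82 counts per old library and 23 to 53 per young library, and since the counting command set no pair option, mates may have been counted separately and the number of fragments may be lower. Of 12620 genes tested with edgeR's quasi-likelihood test, 0.0158% passed an adjusted p of 0.05, and 0 of the 10 members did, and in 0.206% the groups did not overlap in CPM, as in 1 of the 10 members. Clec1a was among the genes called with DESeq2 and, with edgeR, when young replicate 3 was left out. As the contrast took part in choosing the members, nothing is read from these counts or calls. Endothelial cells are a known source of Clec1a. Of the 10 endothelial markers listed, Emcn, Cldn5 and Robo4 had no count in any library, and Cdh5 averaged 0.16 CPM in old and 0.31 CPM in young libraries. Their sum, nearly all of it Vwf and Kdr, ran from 271 to 318 CPM in old and from 259.5 to 319 CPM in young libraries.

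The genes whose log2 CPM followed Clec1a most closely over the 12 libraries, out of 12619 others, were Bmpr1a (a receptor for bone morphogenetic proteins) on chromosome 14, Gdf3 (a TGF-beta family ligand) on chromosome 6 and Cpne8 (a copine) on chromosome 15, at a Pearson r of 0.92 each. Their Spearman coefficients were 0.83, 0.95 and 0.86. These 12 points fall into the old and the young group, and the ranking describes them without a test. Group means were left in, and Clec1a was chosen for its difference between the groups, so the ranking favours genes that differ alike. Mean CPM in old and young libraries were 13.8 and 0.786 for Bmpr1a, 121 and 57.6 for Gdf3 and 4.22 and 0.890 for Cpne8.

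**Figure D2:**
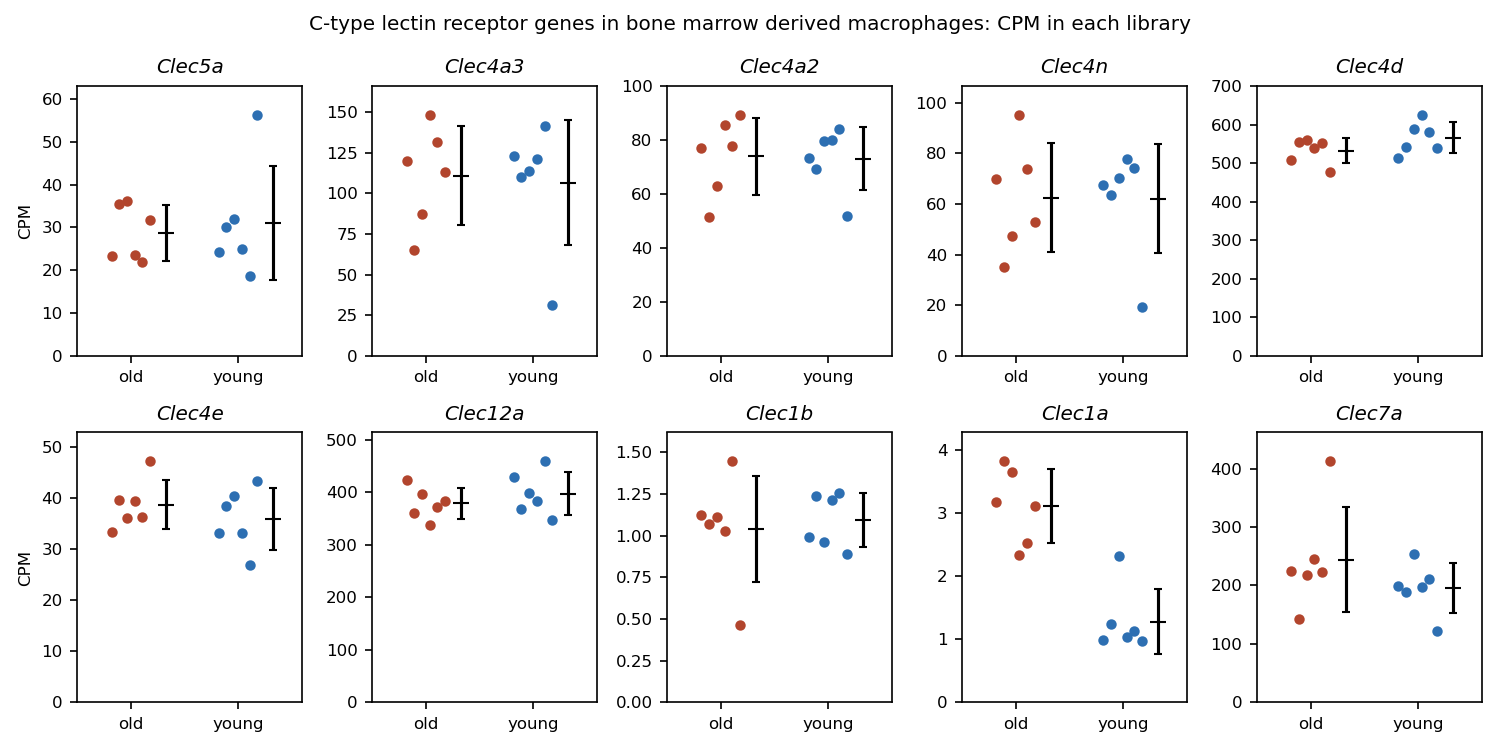
CPM of each of the 10 receptor genes in the 6 old and 6 young libraries, one point per library in replicate order, with the group mean and SD beside them in black, each panel on its own axis from 0. Clec1a has no overlap between the groups, the young point at 2.32 CPM being replicate 3.

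Of the genes around Clec1a, none was called, and 0.0158% of all genes tested were. Within 1 Mb of Clec1a lay 14 tested genes that are not members, of 99 annotated, and their log2 fold changes (5 positive, 9 negative) had a median of -0.02, against -0.01 for all genes tested. None passed in edgeR's quasi-likelihood test (lowest adjusted p = 0.77), DESeq2 and limma voom called none either, and 2 had an unadjusted p below 0.05, against 5.47% of all genes tested. Those 2 were Clec9a, a dendritic cell receptor for dead cells, and Klra3, a Ly49 receptor gene 871.3 kb away. Clec9a is the gene closest to Clec1a: 8 bases separate the end of Clec9a, on the plus strand, from the end of Clec1a, on the minus strand. Clec9a held 0.888, 1.35 and 1.82 CPM as lowest, median and highest of the old libraries, against 0.404, 0.473 and 1.65 CPM in the young ones. All 6 old libraries lay above the young mean, but young replicate 5, at 1.65 CPM, and young replicate 2, at 0.972 CPM, lay among the old libraries. Its log2 fold change was 0.86 with a standard error of 0.38 (edgeR adjusted p = 0.77). Without strand, reads that run past the end of either gene cannot be told apart, and their part in both values was not tested.

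The members near Clec1a lay closer to 0. Clec7a, 9.6 kb from Clec1a, had a log2 fold change of 0.32 (SE 0.22), Clec1b, 15.4 kb away beyond Clec9a, had -0.06 (SE 0.24), and Clec12a, 59.5 kb away, had -0.07 (SE 0.08). Gabarapl1, an autophagy gene 81.2 kb away, stood at 205 ± 14.5 CPM in old and 205 ± 31.0 CPM in young libraries (SD, n = 6 each). The remaining tested neighbours ranged from -0.29 for Clec2d, a ligand of an NK cell receptor, to 0.55 for Klra3. Clec2i was at 0.39 and Klra17 at 0.36. BC035044 was at 0.10, BC064078 at -0.0033, 2310001H17Rik at -0.03, Itfg2 at -0.05, Gm5884 at -0.05, Fkbp4 at -0.06, the activation antigen Cd69 at -0.07 and the NK receptor Klrk1 at -0.09, with standard errors from 0.12 to 0.67.

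**Figure D3:**
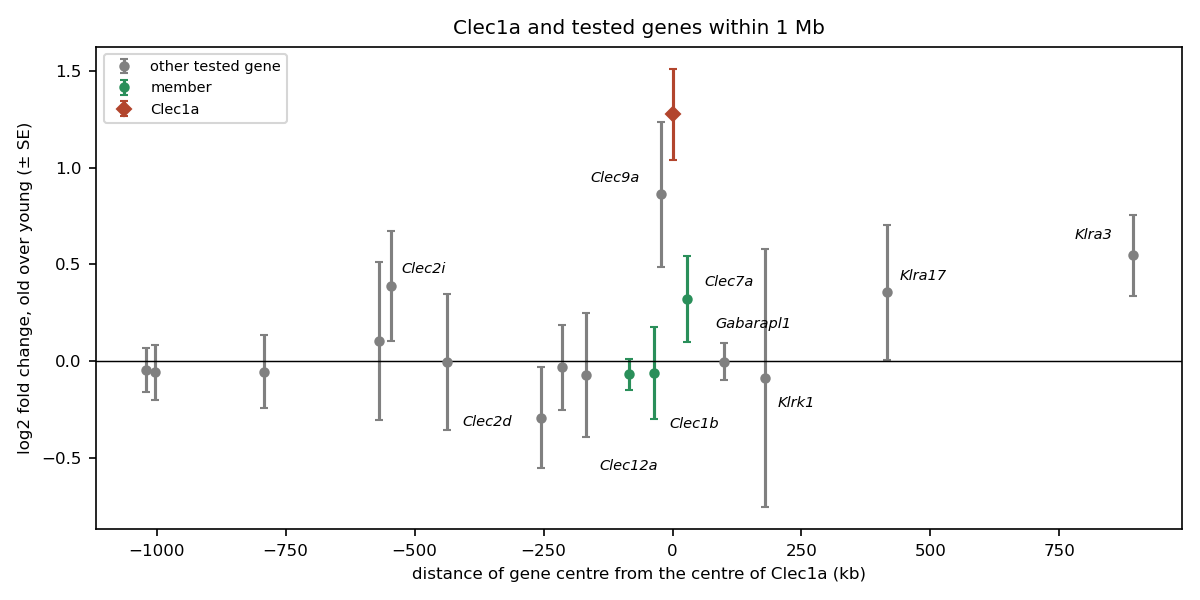
Log2 fold change, old over young, with its standard error, of Clec1a, of the members near it and of every other tested gene within 1 Mb, by distance of the gene's centre from that of Clec1a. Clec1a (1.27) and Clec9a (0.86) stand above the genes around them, whose values lie between -0.29 and 0.55.

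Clec7a varied more between libraries than between ages. It held 142, 223 and 412 CPM as lowest, median and highest of the old libraries, against 121, 198 and 254 CPM in the young libraries. Old replicate 6, the highest, held 1.96 times the mean of the other old libraries, and old replicate 2 and young replicate 6 were the lowest of their groups. The means were 244 ± 89.6 CPM in old and 195 ± 43.0 CPM in young libraries (SD, n = 6 each). The log2 fold change of 0.32 became 0.11 without old replicate 6. That library also held the T and NK, dendritic, osteoclast and monocyte markers given above, and their part in the Clec7a level was not tested. After removal of group means, the genes that followed Clec7a most closely over the 12 libraries were Sema4d (semaphorin 4D), Fam49a and the transcription factor gene Klf13, each at a Pearson r of 0.96 and Spearman coefficients of 0.93, 0.90 and 0.89.

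The Fc receptor gamma chain group did not behave as a unit. Clec4d, which forms complexes with Clec4e, held 478, 547 and 561 CPM as lowest, median and highest of the old libraries, against 515, 562 and 626 CPM in the young libraries. It was the steadiest member, with an SD of log2 CPM within groups of 0.097, while 90.0% of the 9424 genes of at least 5 CPM were more spread, and the median over those genes was 0.18. No old library reached the young mean, and the log2 fold change was -0.09 (SE 0.07). Clec4e, the receptor for mycobacterial cord factor, held 33.3, 37.7 and 47.1 CPM in the old and 26.8, 35.8 and 43.3 CPM in the young libraries, with a log2 fold change of 0.11 (SE 0.12). With group means removed, its nearest genes were Wdcp, Laptm4b (a lysosomal membrane protein) and Bhlhe40 (a transcription factor), at a Pearson r of 0.93, 0.93 and 0.90 over the 12 libraries and Spearman coefficients of 0.87, 0.87 and 0.88. Clec4n, which binds fungal mannan, held 35.1, 61.4 and 95.1 CPM in the old and 19.3, 68.8 and 77.8 CPM in the young libraries. Its log2 fold change was 0.0074 (SE 0.32), and its SD within groups, 0.65, was exceeded by 3.75% of the genes of at least 5 CPM.

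Clec4n shared this spread with Clec4a3 and, less widely, with Clec4a2. Clec4a3 held 65.2, 117 and 148 CPM as lowest, median and highest of the old libraries, against 31.1, 117 and 141 CPM in the young libraries, and its SD within groups was 0.65. Clec4a2 held 51.6, 77.5 and 89.4 CPM in the old and 52.0, 76.6 and 84.2 CPM in the young libraries, with an SD within groups of 0.28. All 3 genes were lowest of their groups in old replicate 2 and young replicate 6. In young replicate 6 Clec4n stood at 27.4%, Clec4a3 at 25.6% and Clec4a2 at 67.1% of the mean of the other 5 young libraries. In old replicate 2 they stood at 51.7%, 54.2% and 65.6% of the mean of the other 5 old libraries. Their log2 fold changes, old over young, were 0.0074 for Clec4n, 0.06 (SE 0.31) for Clec4a3 and 0.02 (SE 0.14) for Clec4a2. Without young replicate 6 they were -0.18, -0.13 and -0.06, and the sign also turned for all 3 without old replicate 4 (-0.15 for Clec4n, -0.04 for Clec4a3 and -0.03 for Clec4a2), for Clec4n without old replicate 1 (-0.03) or old replicate 5 (-0.05), and for Clec4a2 without old replicate 6 (-0.04). These signs are not stable.

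The cluster that holds these genes split along its length. Of 9 Clec4 genes from Clec4a1 to Clec4e, 8 were tested, Clec4b2 having too few counts. The 6 on the side of Clec4a1 (Clec4a1, Clec4a3, Clec4a4, Clec4b1, Clec4a2 and Clec4n) were all lowest of the old group in old replicate 2 and of the young group in young replicate 6. Clec4a1, which is no member, stood at 48.0% in old replicate 2 and at 17.1% in young replicate 6, each against the mean of its group's other libraries. Clec4d and Clec4e, the last 2 of the cluster, stood at 105% and 103% in old replicate 2 and at 94.7% and 126% in young replicate 6. Lowest of both groups in these libraries were 18.2% of the 9424 genes of at least 5 CPM, so the pattern is a common one. They are the old and the young library with the most cell cycle transcripts. In them the macrophage marker sum, most of it Lyz2, was lowest of its group too (33150 CPM in old replicate 2 and 27560 CPM in young replicate 6). What part either has in the pattern was not tested. Reads that aligned to more than one place were not counted, so stretches that Clec4a relatives share give no counts.

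**Figure D4:**
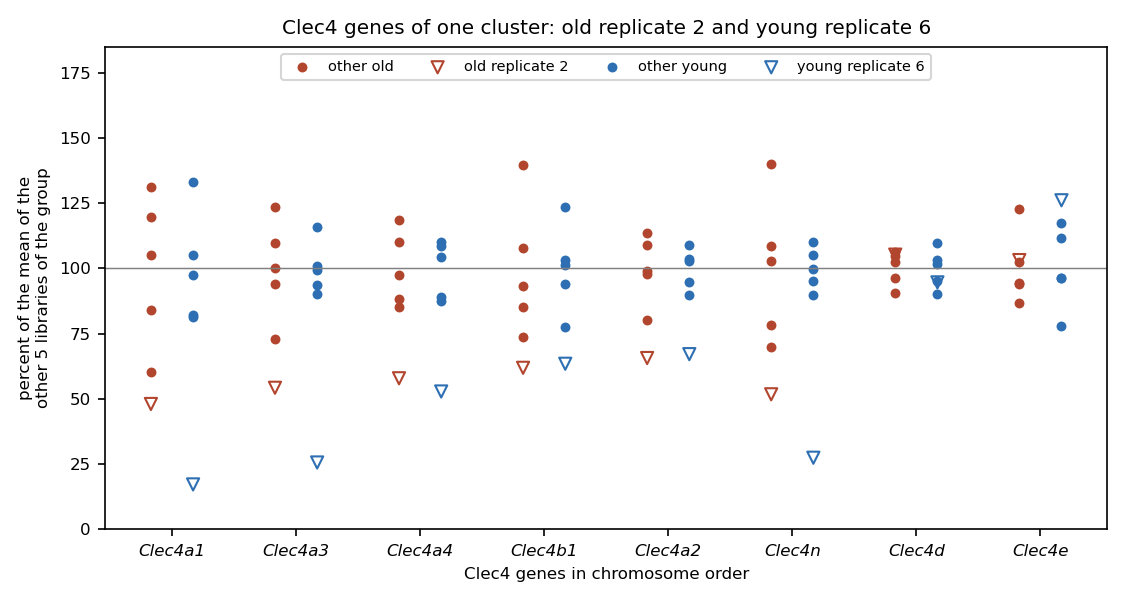
CPM of the 8 tested Clec4 genes in chromosome order, as a percent of the mean of the other 5 libraries of the group (for the other libraries, of their own mean), with old replicate 2 and young replicate 6 drawn as open triangles. The triangles lie below every other point for the first 6 genes and among them or above for Clec4d and Clec4e.

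Promoters of Clec4a3 and Clec4a2, which were low together, are shown beside those of Clec4d and Clec4e, which were not, and that of Clec7a, low in the same libraries. Each is 250 bases before to 50 after a RefSeq start (GRCm38.p6), read 5′ to 3′ on the gene's strand: Clec4a3 at chr6:122952394-122952693 (plus), Clec4a2 at chr6:123122440-123122739 (plus), Clec4d at chr6:123261857-123262156 (plus), Clec4e at chr6:123289822-123290121 (minus) and Clec7a at chr6:129472730-129473029 (minus). The start of Clec7a is the edge of its counted gene, and those of Clec4d and Clec4e lie beside it. Those of Clec4a3 and Clec4a2 lie inside the counted gene, that of Clec4a2 at 123122690 in a gene counted from 123106428. Other starts of these genes were not searched. Capitals mark GAGGAA on either strand, a core of sites of PU.1, the transcription factor that myeloid cells depend on.
Clec4a3: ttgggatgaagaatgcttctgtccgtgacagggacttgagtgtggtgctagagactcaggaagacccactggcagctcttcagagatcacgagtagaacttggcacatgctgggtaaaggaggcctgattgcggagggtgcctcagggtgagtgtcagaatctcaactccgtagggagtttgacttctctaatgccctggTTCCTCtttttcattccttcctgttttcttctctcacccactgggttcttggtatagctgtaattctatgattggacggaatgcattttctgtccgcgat
Clec4a2: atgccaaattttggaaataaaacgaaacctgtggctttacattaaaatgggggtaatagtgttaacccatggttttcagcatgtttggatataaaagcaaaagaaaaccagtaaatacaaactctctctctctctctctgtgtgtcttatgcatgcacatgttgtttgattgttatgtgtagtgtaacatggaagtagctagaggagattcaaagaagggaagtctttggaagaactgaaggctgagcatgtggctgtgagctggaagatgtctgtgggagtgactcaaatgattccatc
Clec4d: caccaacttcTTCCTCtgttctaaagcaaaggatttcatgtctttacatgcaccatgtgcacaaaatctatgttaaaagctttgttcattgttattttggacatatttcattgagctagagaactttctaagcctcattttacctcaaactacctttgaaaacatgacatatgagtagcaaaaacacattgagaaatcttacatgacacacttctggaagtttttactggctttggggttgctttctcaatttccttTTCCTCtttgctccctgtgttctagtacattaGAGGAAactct
Clec4e: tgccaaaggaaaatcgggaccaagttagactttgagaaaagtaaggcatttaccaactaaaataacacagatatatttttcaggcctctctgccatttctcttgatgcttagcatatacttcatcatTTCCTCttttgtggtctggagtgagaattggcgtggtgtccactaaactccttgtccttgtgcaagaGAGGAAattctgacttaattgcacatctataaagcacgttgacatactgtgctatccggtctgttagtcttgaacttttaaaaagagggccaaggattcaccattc
Clec7a: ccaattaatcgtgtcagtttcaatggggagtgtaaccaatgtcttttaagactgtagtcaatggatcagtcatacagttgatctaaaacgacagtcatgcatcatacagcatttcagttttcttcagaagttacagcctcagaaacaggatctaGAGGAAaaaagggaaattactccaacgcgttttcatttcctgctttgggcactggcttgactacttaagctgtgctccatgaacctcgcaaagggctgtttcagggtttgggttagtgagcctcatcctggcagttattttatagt

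The letters GAGGAA or their reverse complement were found in 6 of the 8 member promoters that the table held, against 28.3% of 27025 promoters of the same length. Clec4d had 3 matches, Clec4e 2, Clec4a3 1, Clec7a 1 and Clec4a2 none in these windows, and Clec12a and Clec5a had 2 each. AP-1 letters (TGANTCA, both strands) were found in 2 of the 8, Clec4a2 and Clec12a, against 7.93% of all promoters, and C/EBP letters (TTGCNNAA, both strands) in Clec4e and Clec12a, against 10.8%. E-box letters (CACGTG) were in none, against 7.24%. No match of GAGGAA overlapped one of the others. Member promoters and the others were chosen by unlike rules. For members a start within a known transcript and at the gene edge was preferred, while the background took the first start listed per gene. A match is a description of the letters, not a bound site.

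The inhibitory receptor Clec12a, which senses uric acid crystals, held 338, 378 and 424 CPM as lowest, median and highest of the old libraries, against 346, 391 and 459 CPM in the young ones. Its SD within groups of 0.13 was exceeded by 75.0% of the genes of at least 5 CPM, so its libraries lay close together. The means of 379 ± 29.7 CPM in old and 397 ± 40.9 CPM in young libraries (SD, n = 6 each) gave a log2 fold change of -0.07 (SE 0.08).

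Clec5a, which couples to DAP12 and is known as a receptor for flaviviruses, was highest in the young library in which Clec4n was lowest. It held 21.9, 27.7 and 36.3 CPM in the old libraries and 18.7, 27.5 and 56.2 CPM in the young libraries. Young replicate 6 was the highest, at 2.17 times the mean of the other young libraries, and old replicates 3 and 2 were the highest old ones, at 36.3 and 35.3 CPM. Highest in both young replicate 6 and old replicate 2 were 20.6% of the genes of at least 5 CPM, to which Clec5a, highest in old replicate 3, does not belong. The log2 fold change of Clec5a was -0.11 (SE 0.24) and turned to 0.15 without young replicate 6.

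Clec1b was close to the limit of detection, with 9 to 32 counts per old library and 22 to 29 per young library. It held 0.466, 1.09 and 1.45 CPM as lowest, median and highest of the old libraries, against 0.890, 1.10 and 1.26 CPM in the young ones, and the groups overlapped throughout (log2 fold change -0.06, SE 0.24). Platelets and megakaryocytes are its best known source. Of 10 of their markers Gp6 had no count and Gp9 had 18 counts in all 12 libraries together, while Vwf, Itgb3 and Pf4, at 255, 33.5 and 33.01 CPM in old and 256, 35.3 and 32.99 CPM in young libraries, made up most of the sum.

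**Figure D5:**
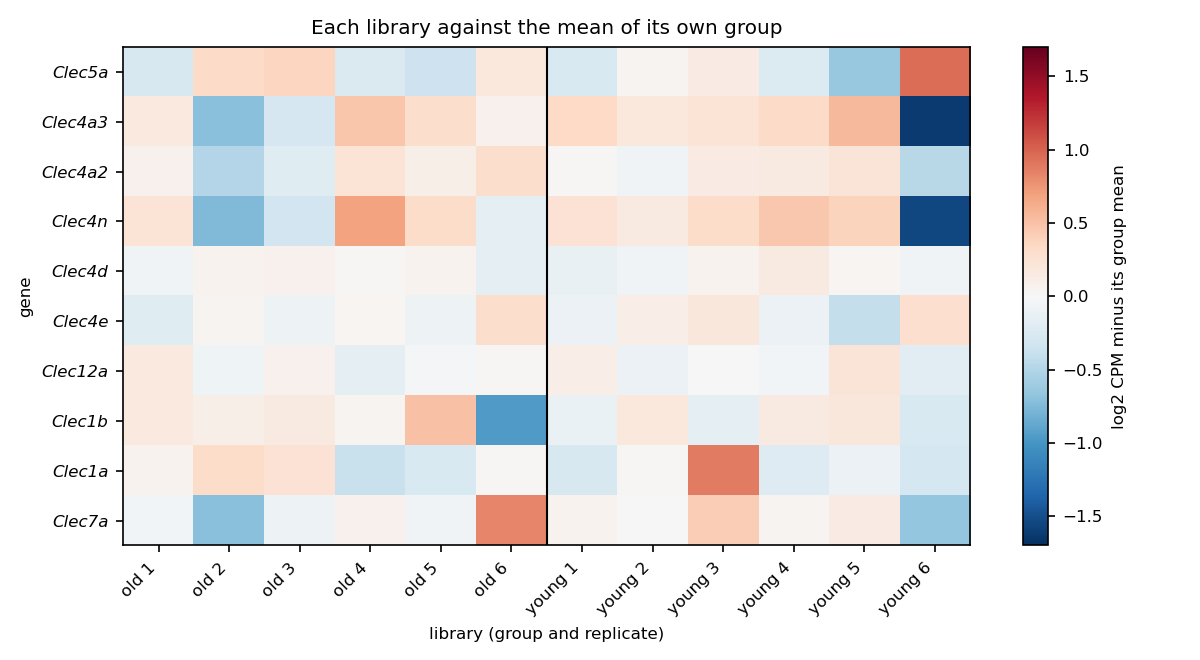
Log2 CPM of each member in each library minus the mean of that library's own group, old libraries left of the line and young ones right, in chromosome order of the genes. Clec4a3 and Clec4n are lowest in young replicate 6 (-1.63 and -1.55), where Clec5a is highest (0.95), and Clec4d stays within 0.16 of its group mean in every library.

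Most of the rest of the family was too low to test. Of 67 other C-type lectin genes listed, 66 were in the table and 23 were tested, and in edgeR's quasi-likelihood test none passed over all genes (9 positive, 14 negative, median -0.01, the same as for all genes tested). DESeq2 and limma voom called none, and 3 had an unadjusted p below 0.05, 2 higher and 1 lower. Over all genes tested 0.0158% were called and 5.47% had an unadjusted p below 0.05, so 0 calls in a list of this size says nothing particular about it. The 3 of lowest p were Cd209a (a DC-SIGN relative), Clec9a and Thbd (thrombomodulin). Cd209a held 0.582 ± 0.268 CPM in old and 1.32 ± 0.534 CPM in young libraries, a log2 fold change of -1.17 (SE 0.36, edgeR adjusted p = 0.77). Thbd held 12.9 ± 1.73 and 10.7 ± 1.51 CPM in old and young libraries, a log2 fold change of 0.26 (SE 0.12, edgeR adjusted p = 0.77). Those highest per length were Clec4a1, at 99.1 CPM per kb in old and 98.9 in young libraries, Cd93 (a complement-related receptor) at 78.4 and 74.3, and Mrc1, the mannose receptor, at 64.8 and 64.4.

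The adaptor chains below the receptors were among the abundant transcripts. All 42 listed genes were tested, with 23 positive and 19 negative log2 fold changes and a median of 0.02, none past the threshold (lowest edgeR adjusted p = 0.77), none in DESeq2 or limma voom, and 3 with an unadjusted p below 0.05, beside the same 0.0158% and 5.47% over all genes. Those 3 were Vav1 (an exchange factor below Syk) at 248 ± 6.70 CPM in old and 271 ± 15.01 CPM in young libraries, Rel (an NF-kappaB subunit) at 28.5 ± 6.89 and 22.1 ± 3.64 CPM, and Cblb (a ubiquitin ligase that limits such signals) at 127 ± 22.1 and 108 ± 13.3 CPM. The listed genes highest per length were these. Tyrobp stood at 2037 CPM per kb in old and 2195 in young libraries, Fcer1g, the Fc receptor gamma chain, at 1549 and 1754, and the phosphatase gene Ptpn6 at 145 and 161. Their log2 fold changes were -0.11 (SE 0.08), -0.18 (SE 0.08) and -0.16 (SE 0.09), each at an edgeR adjusted p of 0.77. No old library reached the young mean of Tyrobp or of Fcer1g, but the groups overlapped for both. Young replicate 5 was the highest library of each, at 1766 CPM of Tyrobp and 1866 CPM of Fcer1g. The other young libraries held 1301 to 1508 CPM of Tyrobp and 1314 to 1609 CPM of Fcer1g.

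Genes of ligands made by the host and of the response were tested where present. Of the ligand genes, Lgals9 (galectin-9, bound by Clec7a) held 252 ± 48.8 CPM in old and 300.3 ± 96.2 CPM in young libraries, and Vim (vimentin) 1634 ± 429 and 1841 ± 615 CPM. Pdpn, the ligand of Clec1b, did not pass the low-count filter. Of 22 response genes 11 were tested, 5 positive and 6 negative with a median of -0.08, and none passed in edgeR's quasi-likelihood test (lowest adjusted p = 0.77), in DESeq2 or in limma voom, with 1 at an unadjusted p below 0.05, against 5.47% of all genes. That gene was the chemokine gene Ccl4, at 68.1 ± 7.47 CPM in old and 83.0 ± 17.9 CPM in young libraries. Ccl3 stood at 76.6 ± 6.36 and 80.9 ± 8.05 CPM, the inflammasome sensor Nlrp3 at 63.0 ± 10.7 and 56.1 ± 5.86 CPM, and Egr3 at 4.39 ± 1.79 and 3.34 ± 0.936 CPM (SD, n = 6 each).

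Of 39 tested genes within 1 Mb of any member, members left out, 1 was called, Gdf3, which lies 342.4 kb from Clec4a3, the nearest member. Gdf3 held 94.1, 129.5 and 145 CPM as lowest, median and highest of the old libraries, against 41.3, 59.3 and 68.4 CPM in the young ones (log2 fold change 1.07, SE 0.13, edgeR adjusted p = 0.011). It was not among the genes called without young replicate 4, nor with young replicate 6, old replicate 2 and old replicate 3 all left out. The Clec4 members beside it had log2 fold changes from -0.09 to 0.11.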

How the data were processed

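Per the labels' protocols, TRIzol RNA went into TruSeq RNA v2 libraries, a kit that does not mark strand. The authors deposited whole-number counts per gene, not normalised, per the file headers made with featureCounts 1.6.0 and Ensembl release 100 genes (GRCm38). The command sets no strand, pair or multiple-alignment option. The submitters' processing notes add FastQC, STAR and mm10, without versions. The exon lengths used for levels per kb stand in the same deposited table. Columns were matched to labels by group letter and replicate number.

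Symbols were given to 55141 of 55401 gene IDs by a table of gene names. Counts were fitted with edgeR 4.0.16 in R 4.3.3 (TMM factors, low-count filter by group, robust quasi-likelihood test, group alone), and p-values were adjusted by Benjamini and Hochberg over 12620 genes at a threshold of 0.05. The filter passed 10 of 10 members. Fold changes are old over young. CPM use TMM factors, and log2 CPM a prior count of 2. Common dispersion gave a biological coefficient of variation of 21.7%. The fit was tested on simulated counts. The labels name biological replicates but not separate animals, so p-values reflect only how these libraries differ among themselves, which may be partly technical. Alternatives were other scalings, no filter, DESeq2 1.42.0, limma voom (3.58.1), a replicate block, each library left out, and the 3 libraries richest in cell cycle transcripts left out together. The members, lists and alternatives were chosen with earlier results of these data known. Named genes are the members, tested neighbours of Clec1a, and of each list the 3 of lowest p and the 3 highest per length, with the 3 genes most like Clec1a, Clec7a and Clec4e, and Gdf3. Those added after values were seen are the other Clec4 genes, Cdh5 and other marker genes.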

Additional observations from a re-analysis of the deposited data

Results flagged for a closer look

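The CPM of each member were compared within each group of 6 libraries for a lowest or highest library standing apart beyond Dixon's critical value, which chance gives in about 1 of 20 groups. Of 20 groups looked at, 4 held such a library, all of them young. Clec1a held 2.32 CPM in young replicate 3, where the other young libraries held 0.970 to 1.24 CPM. Young replicate 6 was the library set apart for the other 3 genes: Clec4a3 held 31.1 CPM there, while the others of its group held 109.9 to 141 CPM, Clec4n held 19.3 CPM, against 63.3 to 77.8 CPM, and Clec5a held 56.2 CPM, against 18.7 to 32.0 CPM.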

How the results depend on the processing

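Over all genes, edgeR's quasi-likelihood test called 2, Bmpr1a and Gdf3, against 4 with no low-count filter, 11 with DESeq2 and 4 with the replicate number as a block. With 1 library left out it called 1 to 5, with 1 (Bmpr1a) without young replicate 4 and 5 without young replicate 3. Clec1a was among the 11 of DESeq2 and among these 5, but it was chosen with this contrast in view. The counts of other C-type lectin genes, of signalling, ligand and response genes and of Clec1a neighbours called were 0 in all 20 alternatives. The labels' shared numbers were not taken to pair the libraries: same-numbered libraries' deviations from the group means correlated between -0.171 and 0.390, and 2 of the 6 old libraries correlated best with the young library of their own number. The log2 fold change of Clec1a was 1.05 to 1.53 over the 20 alternatives, lowest without the 3 libraries richest in cell cycle transcripts and highest without young replicate 3, and no member's value moved by 1 SD of its libraries in any of them. The sign of Clec4n changed in 5 of them, of Clec4a2 in 3, of Clec4a3 in 2 and of Clec5a and Clec1b in 1 each, and that of the other 5 in none. Depth limits Clec1a, Clec1b and Clec9a, at fewer than 100 counts a library.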
